A study of Mus musculus with 4 samples.

Results

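Zinc handling in the mouse prostate was described through 10 genes of the 31053 counted: the metallothioneins *Mt1* and *Mt2*, the importers *Slc39a1*, *Slc39a6*, *Slc39a7* and *Slc39a8*, and the exporters *Slc30a1*, *Slc30a2*, *Slc30a4* and *Slc30a7*. They were taken by name from the UMI matrices of 4 droplet-based single-cell RNA-seq libraries, and all 10 were detected, with between 1151 UMIs (*Slc30a1*) and 217676 UMIs (*Mt1*) in the assigned cells of all libraries. A further list of 19 zinc genes (the other Slc39a and Slc30a genes, *Mt3*, *Mt4* and *Mtf1*) was followed beside them.

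In 3 runs, EPCAM+ cells were sorted into RFP+ and RFP- fractions from each prostate lobe, the ventral (VP), the anterior (AP) and the dorsolateral (DLP), of P2-*Runx1*:RFP reporter mice of the ICR (CD-1) strain, older than 8 weeks, and the fractions were tagged with MULTI-seq lipid barcodes. In this model RFP reports the proximal P2 promoter of *Runx1*, a transcription factor gene, beside a remaining wild-type allele, and every adult group carried it. Intact mice were in all 3 runs, and mice castrated more than 4 weeks earlier were in run 1, with the lobes mixed, and in run 2, with the lobes apart. The fourth library held EPCAM+ cells of urogenital sinus (UGS) explants, taken from ICR (CD-1) embryos at E15.5 and kept in medium with 10 μM dihydrotestosterone, at day 0, 1, 3 and 6. Each lobe fraction of a run came from mice pooled before the sort, so p-values measure the spread between the 3 runs, and neither castration by lobe nor any explant day had a replicate.

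The libraries held between 35051876 and 121090404 UMIs, and between 824 and 5198 cells per library were assigned to 1 fraction, with medians of 9750.0 to 14785 UMIs per cell. Adult cells were grouped into luminal-like and basal-like compartments and into the luminal clusters Lum-A-like to Lum-F-like with the zinc genes left out of the genes used for clustering. Values are counts per 1000000 (CPM) of the UMIs summed over the cells of 1 compartment, fraction and run, with at least 10 cells in each sum; luminal sums held 205028 to 8689128 UMIs and basal sums 112038 to 2797392. The intact DLP RFP+ fraction had sums in run 3 only. Barcodes shared between libraries numbered 0 to 6. In sums over cells, fewer positive cells and less RNA per cell cannot be told apart.

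Metallothioneins are small cysteine-rich proteins that bind zinc and copper, and their genes are classic targets of the zinc-sensing factor MTF1, which binds metal response elements. Slc39a (ZIP) proteins move zinc into the cytosol from outside the cell or from organelles, and Slc30a (ZnT) proteins move it out of the cytosol, across the plasma membrane or into vesicles and the Golgi. The prostate is known as one of the tissues richest in zinc, and its luminal cells release zinc into the secretion.

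*Mt2* (chr8:94172664-94173568) and *Mt1* (chr8:94179082-94180327) are neighbours on the plus strand of mouse chromosome 8 (GRCm38), with 5.513 kb between the end of *Mt2* and the start of *Mt1*. Their counts are the deepest among the members and several results below turn on them, so the 250 bases before the RefSeq start of each (GRCm38.p6, plus strand) are printed, 5′ to 3′, with capitals at each match to the core of the metal response element, written TGCACNC or TGCGCNC and searched on both strands.
*Mt1*, chr8:94178839-94179088: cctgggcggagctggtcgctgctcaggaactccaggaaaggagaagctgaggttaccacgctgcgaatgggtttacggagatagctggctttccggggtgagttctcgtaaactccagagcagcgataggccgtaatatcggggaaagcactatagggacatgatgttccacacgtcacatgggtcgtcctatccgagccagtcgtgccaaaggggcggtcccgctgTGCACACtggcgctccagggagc
*Mt2*, chr8:94172368-94172617: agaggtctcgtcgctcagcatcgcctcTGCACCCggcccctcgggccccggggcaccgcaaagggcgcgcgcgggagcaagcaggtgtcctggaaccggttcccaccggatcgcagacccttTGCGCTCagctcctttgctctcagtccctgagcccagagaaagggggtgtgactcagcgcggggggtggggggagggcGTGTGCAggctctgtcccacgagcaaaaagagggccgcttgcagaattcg
In windows of 300 bases that reach 50 bases past the start, *Mt1* held 3 matches, at positions -23, 2 and 20 from the start, and *Mt2* held 4, at positions -223, -128, -50 and 4. Of 32851 RefSeq windows of that length, 25.7% held at least 1 match, 1.97% at least 3 and 0.517% at least 4. Among the other members, the window of *Slc30a4* held 3 matches, those of *Slc30a1* and *Slc30a2* held 2 each, and those of *Slc39a1*, *Slc39a7* and *Slc30a7* held 0. *Slc39a8* has 2 annotated windows, with 0 and 1 match, and *Slc39a6* was not matched to a window. A match is a run of letters, not a measured binding site.

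In CPM, *Mt1* transcripts had their highest mean in RFP- luminal cells of the AP and their lowest in luminal cells of the VP. A few abundant transcripts lower the CPM of all other genes in VP luminal cells, as given with the lobe comparison below. In intact AP RFP- luminal cells, *Mt1* stood at 3375, 6714 and 8277 CPM in runs 1, 2 and 3 (mean 6122 ± 2504, SD, n = 3). In AP RFP+ luminal cells it stood at 777, 1008 and 2270 CPM. Run 1 was the lowest in both fractions, and no RFP+ value reached the lowest RFP- value. The DLP RFP- luminal cells lay at 2620, 3636 and 6656 CPM, a range that overlapped that of the AP RFP- cells. The VP luminal cells had the lowest means, from 725, 815 and 1169 CPM in the RFP- and 418, 669 and 549 CPM in the RFP+ fraction, and the RFP- values overlapped those of the AP RFP+ cells. Basal cells of the intact lobes had a narrower range, from 687 to 3832 CPM over 14 sums (mean 2515 ± 849).

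*Mt2* followed the same order in luminal cells, with 579.5, 1063 and 1486 CPM in AP RFP- and 161, 231 and 445 CPM in AP RFP+ cells. In basal cells of the AP RFP- fraction, however, *Mt2* stood at 779.5, 1283 and 1579 CPM, above the luminal value of the same run in each case. *Mt2* averaged 1137 ± 354 CPM over 14 basal sums, against 462 ± 425 over the 16 luminal sums, so that the 2 genes divided the compartments differently. Over all adult sums, intact and castrated, the ratio of *Mt1* to *Mt2* UMIs lay between 1.54 and 2.89 in the 17 basal sums (median 2.21) and between 3.09 and 6.32 in the 22 luminal sums (median 4.69). The 2 ranges did not overlap.

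**Figure D1:**
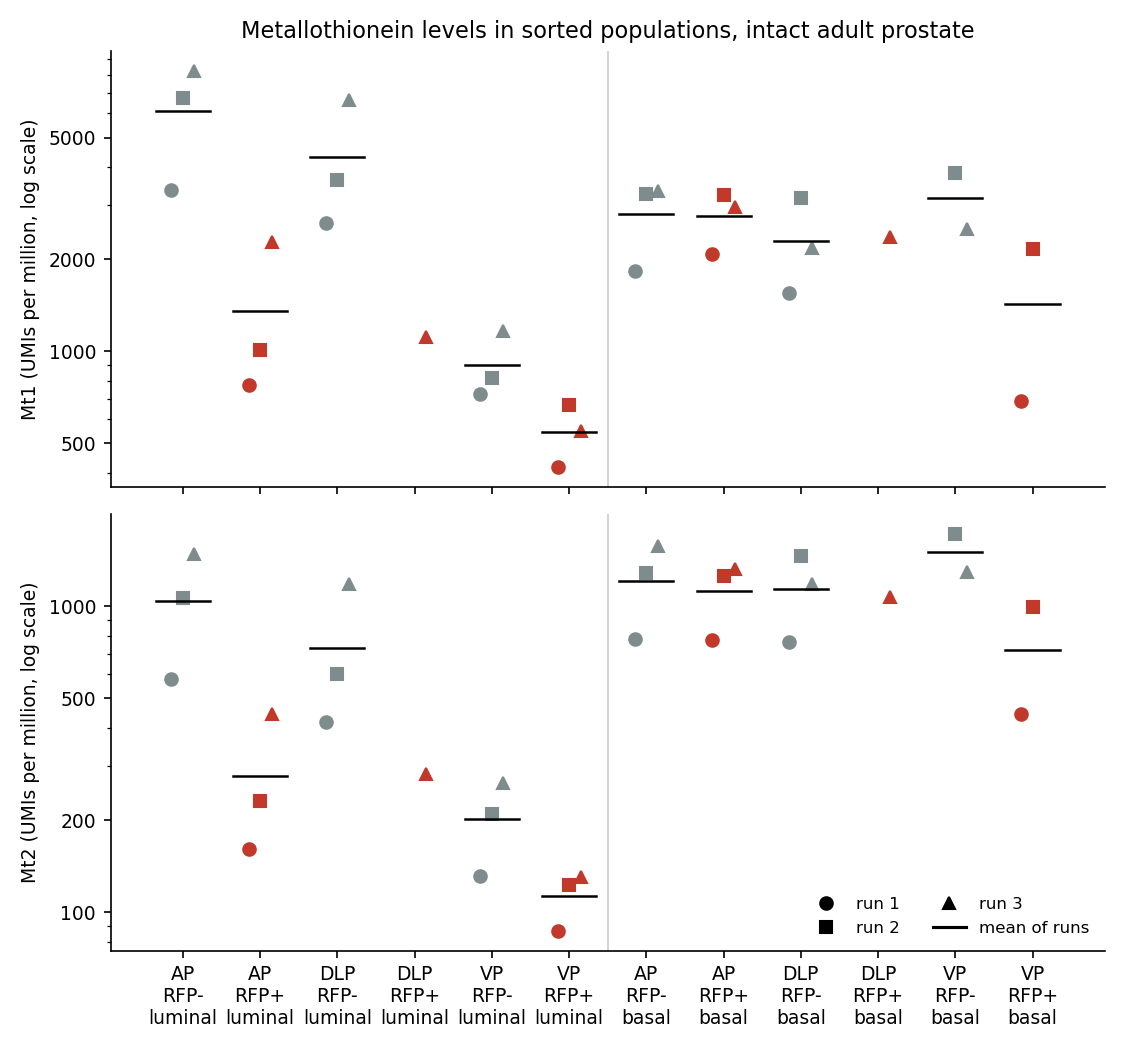
*Mt1* (upper) and *Mt2* (lower) in CPM on a log axis for each sorted fraction of the intact lobes, luminal cells to the left and basal cells to the right of the grey line; symbols are runs, red is RFP+, grey is RFP- and bars are means of the runs. AP and DLP RFP- luminal cells reach 8277 and 6656 for *Mt1*, whereas VP luminal cells stay at or below 1169. A few abundant transcripts lower the CPM of all other genes in VP luminal cells.

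The first comparison asked how zinc genes differ between RFP+ and RFP- cells of 1 lobe. Between the RFP+ and RFP- luminal cells of the AP, metallothioneins, the vesicular exporter gene *Slc30a2* and the endoplasmic reticulum and Golgi zinc transporter gene *Slc39a7* were lower in RFP+ cells, and the importer gene *Slc39a8* and the vesicular exporter gene *Slc30a4* were higher. By the edgeR quasi-likelihood test with Benjamini-Hochberg adjustment over 8795 genes, 6 of the 9 members tested differed, 4 lower and 2 higher, beside 25.2% of all genes; *Slc30a1* was too low to be tested. The edgeR log2 fold change of *Mt1* was -2.31 ± 0.52 (SE, adjusted p = 0.0103) and that of *Mt2* was -2.02 ± 0.49 (adjusted p = 0.0142). In each run the RFP+ value was the lower one for both genes.

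*Slc30a2*, the exporter that loads zinc into secretory vesicles and that is known for zinc secretion into milk, stood at 285, 190 and 203 CPM in AP RFP- luminal cells. In the RFP+ cells it stood at 62.7, 34.5 and 29.5 CPM, so the groups were well apart (edgeR log2 fold change -2.57 ± 0.23, adjusted p = 0.00032). *Slc39a7*, whose product releases zinc from the endoplasmic reticulum and Golgi, stood at 212, 130 and 136 CPM in RFP- and 95.8, 62.0 and 69.2 CPM in RFP+ cells (edgeR log2 fold change -1.21 ± 0.19, adjusted p = 0.00187). All 3 RFP- values of *Slc39a7* lay above all 3 RFP+ values.

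*Slc39a8*, which encodes a plasma membrane importer of zinc and manganese, showed the opposite pattern, with 176, 157 and 174 CPM in AP RFP+ and 41.1, 36.4 and 30.005 CPM in AP RFP- luminal cells (edgeR log2 fold change 2.08 ± 0.18, adjusted p = 0.000299). The RFP+ values varied little between runs, and the lowest of them was far above the highest RFP- value. *Slc30a4*, another exporter of intracellular vesicles, was a low transcript, with 13.7, 10.7 and 10.2 CPM in RFP+ cells. In RFP- cells it was counted by 4, 6 and 0 UMIs, or 2.53, 1.78 and 0 CPM, where the absence of UMIs in run 3 allows up to 4.29 CPM (3 UMIs). Its edgeR log2 fold change was 2.51 ± 0.44 (adjusted p = 0.00313).

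The other members did not pass the threshold in the AP luminal cells. The plasma membrane importer gene *Slc39a1* had a log2 fold change of 0.35 ± 0.32 (edgeR, adjusted p = 0.482) and the importer gene *Slc39a6* one of -0.51 ± 0.34 (edgeR, adjusted p = 0.316). *Slc30a7*, which encodes a Golgi exporter, stood at -0.56 ± 0.19 (edgeR, adjusted p = 0.0626) and was called with the run as a block (log2 fold change -0.59 ± 0.18, adjusted p = 0.0227), beside 35.9% of all genes. Among the other zinc genes, 4 of 12 tested were lower in RFP+ cells and 0 higher, while with the block the importer *Slc39a10* was higher as well (log2 fold change 1.27 ± 0.43, edgeR adjusted p = 0.0382). They were the Golgi-resident importers *Slc39a9* (log2 fold change -0.66, edgeR adjusted p = 0.0400) and *Slc39a11* (-1.78, 0.00562), the exporter *Slc30a5* (-0.76, 0.0303) and the metallothionein *Mt3* (-2.69, 0.0125). *Mt3* is best known from brain, and its levels here were 306, 548 and 1029 CPM in RFP- and 35.8, 122 and 154 CPM in RFP+ cells. Without run 2 the calls of *Mt1* (edgeR adjusted p = 0.133), *Mt2* (0.144) and *Slc30a4* (0.0662) were lost and 753 rather than 2214 genes passed, while *Slc30a2*, *Slc39a7* and *Slc39a8* were called without any 1 of the runs. With only cells of fewer than 7500 UMIs, *Slc39a7* (edgeR adjusted p = 0.227) and *Slc39a8* (0.110) no longer passed.

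The sort fractions of the AP differed in their luminal clusters. Lum-B-like cells made up 88.3%, 82.8% and 93.3% of the RFP- luminal cells in runs 1, 2 and 3, and 11.9%, 7.22% and 6.16% of the RFP+ luminal cells, of which most were Lum-D-like. The few Lum-B-like cells of the RFP+ fraction (25, 7 and 9 cells) carried 63.1%, 53.5% and 69.7% of its *Mt1* UMIs and 93.8%, 98.2% and 90.9% of its *Slc30a2* UMIs, but only 4.31%, 3.59% and 3.70% of its *Slc39a8* UMIs. Within Lum-B-like cells, the fractions could be set side by side in run 1 only. There, *Slc30a2* stood at 330 CPM in RFP+ and 335 CPM in RFP- cells, and *Mt1* at 2750 and 3908 CPM. These RFP+ values lie far above those of the Lum-D-like RFP+ cells, which had 352, 483 and 737 CPM of *Mt1* and 4.95, 0 and 3.40 CPM of *Slc30a2* in the 3 runs, but 208, 276 and 208 CPM of *Slc39a8*. Differences between the sort fractions and between the clusters they hold therefore cannot be told apart in these sums. The summed level of 7 dissociation stress genes (*Fos*, *Jun* and others) was 5499 to 11373 CPM in the RFP+ and 3454 to 5527 CPM in the RFP- luminal sums, and its part in the result was not tested.

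**Figure D2:**
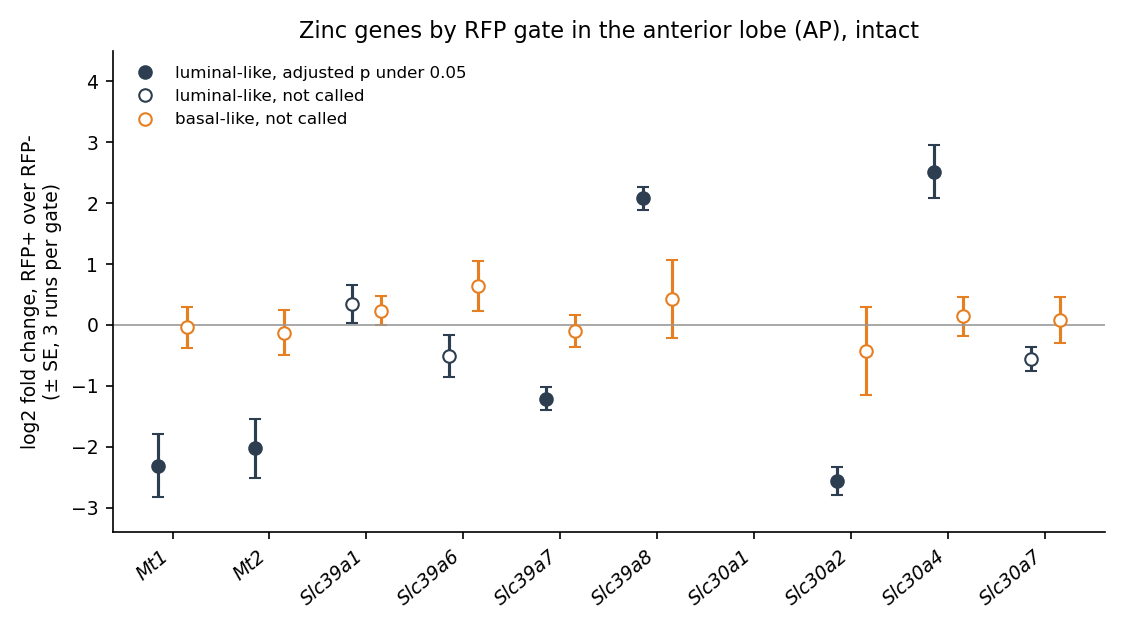
log2 fold change of each member between RFP+ and RFP- cells of the AP (edgeR, 3 runs per fraction, bars are SE), with luminal-like cells in dark blue and basal-like cells in orange; filled points have an adjusted p under 0.05. In luminal cells the values run from -2.57 (*Slc30a2*) to 2.51 (*Slc30a4*), whereas in basal cells they stay between -0.43 and 0.64 and no point is filled.

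In AP basal cells the same comparison showed small differences, from -0.43 (*Slc30a2*) to 0.64 (*Slc39a6*) on the log2 scale. None of 9 members was called by edgeR, nor was any of 8464 genes (0%), although 101 genes had an unadjusted p under 0.05, DESeq2 called 1 and the run as a block 32. *Mt1* lay at 2079, 3249 and 2974 CPM in RFP+ and 1831, 3274 and 3342 CPM in RFP- basal cells, so the fractions overlapped. With the block, *Mt3* was lower in RFP+ basal cells (log2 fold change -1.50 ± 0.28, edgeR adjusted p = 0.0104). It stood at 7.15, 29.6 and 2.42 CPM in RFP+ and 12.6, 73.9 and 17.9 CPM in RFP- basal cells, and the fractions overlapped between runs. The transcript *9530053A07Rik*, which leads Lum-B-like cells, averaged 667 CPM in the RFP+ and 1405 CPM in the RFP- basal sums, and the part of RNA from luminal cells in the *Mt3* value was not tested.

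Whether the RFP difference itself differed between luminal and basal cells of the AP was tested as an interaction, for which 6.22% of 9725 genes passed. *Slc30a4* was the 1 member of 10 called, with a difference of 2.33 ± 0.55 between the log2 fold changes (edgeR, adjusted p = 0.0252). With the run as a block, 15.54% of genes and 5 members passed: *Mt1* (-2.43 ± 0.25, edgeR adjusted p = 0.000142), *Mt2* (-2.02 ± 0.19, 0.000142), *Slc39a7* (-1.19 ± 0.20, 0.00177), *Slc30a2* (-2.22 ± 0.60, 0.0238) and *Slc30a4* (2.36 ± 0.54, 0.0106). Of the other zinc genes, *Slc39a9* (-1.14 ± 0.32, edgeR adjusted p = 0.0305) and *Slc39a14* (-1.57 ± 0.42, 0.0220) passed with the block. In the first fit, without the block, neither metallothionein was called, and *Mt1* had an edgeR adjusted p of 0.0639. Over the 12 alternatives to that fit, the block among them, *Mt1* passed in 5 and *Mt2* in 4. These alternatives called 0% to 15.54% of genes, and the alternative of at least 20 cells per sum used the same sums as the first fit. *Slc30a4* lost its call when run 1 (edgeR adjusted p = 0.0545), run 2 (0.285) or run 3 (0.200) was left out, and without run 2 edgeR called 0 genes, with 1387 at an unadjusted p under 0.05.

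In VP luminal cells the RFP+ and RFP- fractions differed little, with 26 of 7952 genes called (0.327%) and 0 of 9 members. *Mt1* (log2 fold change -0.77 ± 0.32, unadjusted p = 0.0395 by edgeR) and *Mt2* (-0.88 ± 0.33, unadjusted p = 0.0257 by edgeR) were below zero, and lower in the RFP+ fraction in each of 3 runs. With the block, which called 1.75% of genes, *Mt2* was called (-0.82 ± 0.17, edgeR adjusted p = 0.0237), as was the exporter *Slc30a10* (-2.57 ± 0.38, 0.00256). *Slc30a10* exports manganese, and it counted 9.02, 15.8 and 13.9 CPM in VP RFP- and 1.07, 3.80 and 1.01 CPM in VP RFP+ luminal cells. Over the 3 runs, 31.4% of the VP RFP- luminal cells were Lum-C-like and 64.5% Lum-A-like, against 1.06% and 93.1% of the RFP+ cells. Lum-C-like cells averaged 65.9 CPM of *Slc30a10* and 307 CPM of *Mt2*, and Lum-A-like cells 2.05 and 130 CPM, so fraction and cluster cannot be told apart for these 2 genes. The RFP- luminal sum of run 1 held 10 cells only. Leaving out run 2 or run 3 left 0 genes called by edgeR in this comparison, with 290 and 248 genes at an unadjusted p under 0.05, while DESeq2 called 68 over all runs.

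The next comparison asked how the lobes differ among cells of 1 sort fraction. A few secretory transcripts took most of the UMIs of VP cells: the 50 most abundant genes held 67.7% to 68.7% of the UMIs of Lum-A-like cells, the cluster of most VP luminal cells, and 24.9% to 28.0% of those of Lum-B-like cells. CPM of all other genes are lowered by that share. The edgeR folds, which are scaled over many genes, therefore lie lower for AP over VP than the ratios of CPM: a gene higher in the AP has a smaller fold, a gene lower in the AP a larger one, and the sign can differ.

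In RFP- luminal cells, *Slc30a2* separated the lobes most among the members. It stood at 0, 7.11 and 10.6 CPM in the VP against 285, 190 and 203 CPM in the AP (edgeR log2 fold change 3.98 ± 0.44, adjusted p = 0.000457). *Mt1* was also higher in the AP (1.76 ± 0.47, adjusted p = 0.0298), but not without run 2 (edgeR adjusted p = 0.236) or run 3 (0.0573), nor with at least 20 cells in each sum (0.0891). These 2 of 8 members tested were called beside 15.8% of all genes. *Slc30a4* was too low to be tested in this fit, but it was called in each of the 5 alternatives that tested it. It stood at 2.53, 1.78 and 0 CPM in the AP and 5.41, 9.69 and 9.79 CPM in the VP. *Mt2*, at 1.35 ± 0.44 (edgeR adjusted p = 0.0658), was not called, but it passed with the block (1.33 ± 0.22, 0.00211), beside 18% of all genes. *Slc39a8* was not called either (0.79 ± 0.37, edgeR adjusted p = 0.182). Over the 11 alternatives, which called 5.22% to 18% of genes, *Mt1* passed in 7 and *Mt2* and *Slc39a8* in 4 each. *Slc39a7* had a log2 fold change of -0.05 ± 0.21 (edgeR adjusted p = 0.918), although its CPM were higher in the AP in 3 of 3 runs. Of the other zinc genes, *Mt3* was higher in the AP (4.83, edgeR adjusted p = 0.00710), and *Slc30a10* (-3.66, 0.000838) and *Slc39a11* (-0.93, 0.0328) were lower. Over the 3 runs, 86.1% of the AP cells were Lum-B-like, while 64.5% of the VP cells were Lum-A-like and 31.4% Lum-C-like. Lobe and cluster make-up cannot be told apart in this comparison.

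The AP and DLP RFP- luminal cells were closer to each other, with 0.799% of 8012 genes and 0 of 8 members called. The log2 fold changes of the members ran from -1.04 (*Slc39a8*) to 0.77 (*Slc30a2*), and 2 members had an unadjusted p under 0.05 by edgeR. With the block, which called 6.98% of genes, 4 members passed. *Mt1* (0.43 ± 0.08, edgeR adjusted p = 0.00946), *Mt2* (0.45 ± 0.09, 0.0149) and *Slc30a2* (0.77 ± 0.12, 0.00213) were higher and *Slc39a8* (-1.01 ± 0.18, 0.00618) was lower in the AP, and of the other zinc genes *Mt3* was higher (2.29 ± 0.25, edgeR adjusted p = 0.000275). With only cells of fewer than 7500 UMIs and no block, *Mt1* (-0.44) and *Mt2* (-0.33) had the other sign, uncalled. Over the 3 runs, 86.1% of the AP and 64.2% of the DLP cells were Lum-B-like, and 0.749% and 17.0% were Lum-C-like, so lobe and cluster make-up cannot be told apart. Within runs, *Slc39a8* was 102, 48.6 and 69.7 CPM in the DLP and 41.1, 36.4 and 30.005 CPM in the AP.

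In RFP+ luminal cells, 4 of 10 members differed between AP and VP, beside 30.1% of all genes. Over the 3 runs, 86.3% of the AP cells were Lum-D-like and 93.1% of the VP cells Lum-A-like. Lobe and cluster make-up therefore cannot be told apart here. *Slc39a8* (2.04 ± 0.18, edgeR adjusted p = 0.000284) and *Slc30a2* (4.15 ± 0.56, 0.00114) were higher in the AP. *Slc39a6*, a plasma membrane importer gene known for its response to oestrogen in breast cells, was lower in the AP (-1.94 ± 0.24, edgeR adjusted p = 0.000821), with 5.88, 6.89 and 6.44 CPM against 12.4, 10.5 and 9.69 CPM in the VP. On the CPM scale its difference was smaller, at ratios of 0.473, 0.658 and 0.664 within runs. *Slc39a7* was also lower in the fit (-1.07 ± 0.15, edgeR adjusted p = 0.00132), although on the CPM scale the AP was the higher lobe in 2 of 3 runs. All 4 were called without any 1 of the runs. With the block, *Slc30a4* (-0.63 ± 0.21, edgeR adjusted p = 0.0498) and *Slc30a7* (-0.51 ± 0.16, 0.0392), and of the other zinc genes *Slc39a9* (-0.53 ± 0.17, 0.0398), passed as well, beside 41.5% of all genes. On the CPM scale, however, both *Slc30a4* and *Slc30a7* were higher in the AP in 3 of 3 runs. *Mt1* (0.20 ± 0.43) and *Mt2* (0.18 ± 0.40) were not called. Among the other zinc genes, the intestinal zinc importer *Slc39a4* (2.03, edgeR adjusted p = 0.00219) and *Mt3* (4.47, 0.00414) were higher in the AP, and *Slc39a11* (-2.72, 0.000442) and *Slc39a14* (-1.56, 0.0195) were lower.

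By cluster, the members formed 2 opposite profiles among luminal cells, which are given as a description because the clusters were made from the same cells. Lum-B-like cells had the highest levels of *Mt1*, *Mt2*, *Slc39a7*, *Slc30a2* and *Slc30a7* among the luminal clusters of intact lobes, and Lum-D-like cells the highest level of *Slc39a8*. *Mt1* averaged 7498 ± 3480 CPM in Lum-B-like cells (3603, 8608 and 10283 CPM in the 3 runs), against 597 ± 110 in Lum-A-like, 1266 ± 23.2 in Lum-C-like (2 runs) and 523 ± 202 CPM in Lum-D-like cells. The lowest run of the Lum-B-like cells was above every other luminal cluster and run. Basal-like cells lay between, at 2625 ± 658 CPM. Their level was close to that of the fibroblast-like cells that came through the sort, at 2714 ± 1024 CPM, so that *Mt1* was not particular to epithelium.

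*Slc30a2* was seen at 326, 248 and 163 CPM in Lum-B-like cells and at 52.5 and 125 CPM in Lum-C-like cells of runs 2 and 3. In Lum-A-like cells it averaged 0.693 ± 0.407 CPM, and in Lum-D-like cells 2.40 ± 2.22 CPM. Basal-like cells, at 16.5, 9.99 and 3.82 CPM, lay above the fibroblast-like cells (6.01, 3.67 and 0 CPM) in each run. Hematopoietic-like cells had 84.4, 0.806 and 3.82 CPM, the first value coming from 36 UMIs in 43 cells of run 1, so that signal of the size seen in basal-like cells was also met in cells of another lineage.

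*Slc39a8* averaged 221 ± 26.3 CPM in Lum-D-like cells (203, 251 and 208 CPM). Lum-B-like cells had 56.7 ± 18.7 CPM, Lum-A-like cells 16.0 ± 3.37 CPM and Lum-C-like cells 5.79 ± 1.51 CPM. Basal-like cells, at 8.58 ± 5.20 CPM, did not stand above the fibroblast-like (9.97 ± 2.39) or the hematopoietic-like cells (10.8 ± 6.02). *Slc30a4* was at its lowest in the Lum-B-like cells, at 1.56 ± 0.267 CPM, and, among the named epithelial clusters, at its highest in basal-like cells, at 18.1 ± 2.76 CPM, with 13.5 ± 2.37 CPM in Lum-D-like cells and 8.17 ± 0.776 CPM in Lum-A-like cells. The 2 vesicular exporters were therefore distributed in opposite ways over these 2 luminal clusters.

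*Slc39a7* averaged 178 ± 46.4 CPM in Lum-B-like cells and 57.9 ± 11.8 CPM in Lum-D-like cells, and *Slc30a7* averaged 41.6 ± 6.54 and 20.5 ± 2.27 CPM. When the 50 most abundant genes were left out of the totals, an alternative added after the data were seen, *Slc39a7* reached 223 CPM in Lum-A-like and 242 CPM in Lum-B-like cells, and *Slc30a7* 48.0 and 56.8 CPM, so that these clusters lay close together for both genes. *Slc30a4* then reached 25.6 CPM in Lum-A-like and 24.7 CPM in basal-like cells, but stayed at 2.12 CPM in Lum-B-like cells. For *Mt1* the Lum-A-like cells rose to 1877 CPM on that scale, against 10288 CPM in the Lum-B-like and 713 CPM in the Lum-D-like cells. In CPM of all UMIs, the importer genes *Slc39a1* (12.7 to 30.3 CPM) and *Slc39a6* (4.88 to 12.1 CPM) were low in all 5 epithelial clusters. So was the plasma membrane exporter gene *Slc30a1* (3.11 to 8.56 CPM). Without the 50 most abundant genes, *Slc39a6* reached 32.8 CPM in Lum-A-like cells, against 6.58 to 16.4 CPM in the other epithelial clusters. *Slc39a1* then ranged from 23.1 to 41.1 CPM, with 39.8 CPM in Lum-A-like cells, and *Slc30a1* from 4.28 to 11.4 CPM.

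**Figure D3:**
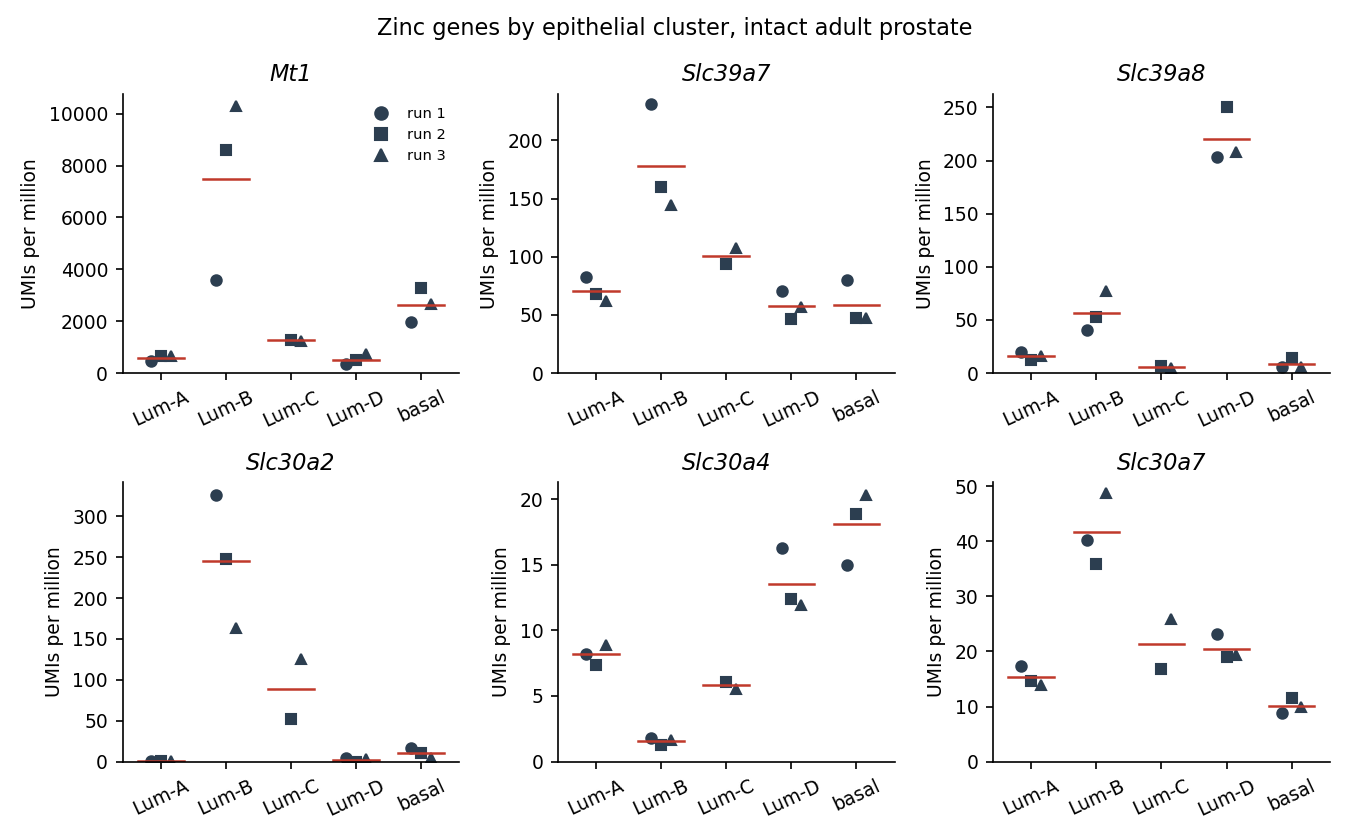
CPM of 6 members by epithelial cluster of the intact prostate, with 1 symbol per run and the mean as a red line; axes start at 0 and differ between genes. *Mt1*, *Slc39a7*, *Slc30a2* and *Slc30a7* peak in Lum-B-like cells (means 7498, 178, 246 and 41.6), *Slc39a8* peaks in Lum-D-like cells (221) and *Slc30a4* is lowest in Lum-B-like cells (1.56).

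Single cells varied widely around these means. In Lum-B-like cells of run 2, the quartiles of *Mt1* were 4237, 8040 and 11927 CPM, with a highest value of 33844 CPM, at a median depth of 20581 UMIs per cell. In Lum-D-like cells of the same run the quartiles were 145, 318 and 628 CPM at a median depth of 9237 UMIs. In each run the upper quartile of the Lum-D-like cells (459, 628 and 954 CPM) lay below the lower quartile of the Lum-B-like cells (1049, 4237 and 4117 CPM). *Mt1* and *Mt2* rose and fell together from cell to cell. Spearman's rho of their CPM was 0.859 to 0.867 over the 108, 166 and 110 Lum-B-like cells of the 3 runs and 0.356 to 0.552 over Lum-D-like cells. Cells of 1 run share a library and depth, and low counts weaken such a correlation, so these are descriptions.

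Across the 39 adult sums, which share runs and cells of the same mice, *Mt1* and *Mt2* had the closest relation among the members (Pearson's r = 0.882 and Spearman's rho = 0.865 of log2(CPM + 1)). *Slc39a8* and *Slc30a7* followed, at r = 0.745 (rho = 0.782). *Slc39a7* and *Slc30a4* had the most negative value, at r = -0.689 (rho = -0.679). Outside the members, *Mt3* ran with *Slc30a2* (r = 0.813, rho = 0.806). Among 4842 genes averaging 20 CPM or more, those most like *Mt1* were the endoplasmic reticulum chaperone genes *Dnajb9* (r = 0.864) and *Hspa5* (r = 0.803), and *Tma7* (r = 0.797). Those most like *Slc30a2* were *9530053A07Rik* (r = 0.928), *Fgl1* (r = 0.911) and *Glb1l3* (r = 0.910), and those most like *Slc39a8* were *Tspan8* (r = 0.890), *Serpinb1a* (r = 0.871) and *Cd24a* (r = 0.863). *9530053A07Rik* and *Tspan8* were among the marker genes used to name the Lum-B-like and Lum-D-like clusters. The abundant transcripts of intact VP luminal cells lower the CPM of all other genes there together. The part of this in these correlations was not tested.

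The following comparison asked what changed with castration. Within run 2, castration was accompanied by lower levels of metallothionein and *Slc30a2* transcripts in RFP- luminal cells of the AP and DLP, where each group was 1 pool in 1 library, so no test was possible. A change is called here where the CPM differed at least 2-fold and the exact 95% Poisson intervals, which cover counting error only, did not overlap. In AP RFP- luminal cells, 3 of 8 members with enough UMIs passed, beside 11.4% of all genes. *Mt1* stood at 1032 CPM in 48 castrated cells and 6714 CPM in 145 intact cells, a ratio of 0.154 (0.144 to 0.164). *Mt2* stood at 311 and 1063 CPM (ratio 0.293, 0.259 to 0.330) and *Slc30a2* at 20.2 and 190 CPM (ratio 0.106, 0.0634 to 0.167). The castrated levels of all 3 lay below those of the intact AP RFP- cells in each of the 3 runs. *Mt3* moved the same way, from 548 to 13.8 CPM.

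In DLP RFP- luminal cells, 4 of 7 members passed, beside 6.57% of all genes, but the castrated sum held 21 cells. *Mt1* was 961 CPM in castrated and 3636 CPM in intact cells (ratio 0.264, 0.240 to 0.290), *Mt2* 266 and 599 CPM (ratio 0.444, 0.366 to 0.534) and *Slc30a2* 20.3 and 91.0 CPM (ratio 0.223, 0.104 to 0.423). *Slc39a8* was 18.3 and 48.6 CPM, from 9 castrated UMIs. Without the 50 most abundant genes, neither *Mt2* (ratio 0.513) nor *Slc39a8* (ratio 0.434) passed. Of the other zinc genes, *Mt3* (58.8 and 152 CPM) and *Slc39a9* (8.11 and 30.8 CPM) were lower in castrated cells, and *Slc30a10* had 0 UMIs in castrated and 20 in intact cells. The castrated RFP- luminal cells were mostly of clusters named Lum-E-like, as 72.9% in the AP, where 82.8% of the intact cells were Lum-B-like, and a change within cells and a change of cells cannot be told apart. The 11 Lum-B-like cells of the castrated mice had 3939 CPM of *Mt1* and 49.7 CPM of *Slc30a2*, against 8608 and 248 CPM in those of the intact mice of that run. Lum-A-like cells, whose markers are those of the VP, were 20.8% of the castrated AP and 23.8% of the castrated DLP RFP- luminal cells. An alternative added after the data were seen left them out. In the AP the ratio of *Mt1* was then 0.133 and that of *Slc30a2* was 0.110, beside 13.8% of all genes. In the DLP, with 16 castrated cells, *Mt1* (ratio 0.249) and *Mt2* (ratio 0.423) passed, beside 7.98% of all genes. *Slc30a2* passed there with a smaller fall, at 61.6 CPM in castrated and 140 CPM in intact cells (ratio 0.439). *Slc39a8* no longer passed in the DLP (ratio 0.60).

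In AP RFP+ luminal cells only *Slc30a2* passed among the 10 members, at 7.35 CPM in castrated and 34.5 CPM in intact cells (ratio 0.213, 0.127 to 0.348), beside 12.7% of all genes. *Mt1* was 660 CPM in castrated and 1008 CPM in intact cells. *Mt2* was nearly level, at 213 and 231 CPM. *Slc39a8* was 80.3 and 157 CPM, a ratio of 0.511 that stood just outside the limit, and it passed without the Lum-A-like cells (ratio 0.386, beside 13.4% of all genes). *Mt3* was lower past the limit, at 7.35 CPM in castrated and 122 CPM in intact cells. In the intact sum, 81.4% of the cells were Lum-D-like. Of its 97 cells, the 7 of the Lum-B-like cluster held 98.2% of the *Slc30a2* UMIs. By contrast, 82.7% of the castrated cells were Lum-E-like, so a change within cells and a change of cells cannot be told apart here either. The 11 castrated RFP+ luminal cells of the mixed lobes in run 1 had 376 CPM of *Mt1*, 9.75 CPM of *Slc30a2* and 107 CPM of *Slc39a8*.

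The VP RFP+ luminal cells went the other way on the CPM scale, where 6 of 9 members were higher in castrated cells, but so was the median of all genes, by 0.92 on the log2 scale, and 40.5% of all genes passed. In the intact sum 50 genes took 69.0% of the UMIs, and in the castrated sum 35.7%. Relative to the median of all genes, *Slc39a8* (70.7 CPM in castrated and 15.3 CPM in intact cells) was 2.44-fold higher, *Mt2* (376 and 123 CPM) 1.62-fold and *Mt1* (1721 and 669 CPM) 1.36-fold. *Slc30a1* (10.3 and 3.80 CPM), *Slc39a1* (24.7 and 10.8 CPM) and *Slc30a4* (15.2 and 7.02 CPM) were 1.43-fold, 1.21-fold and 1.15-fold higher than that median. The tested members that did not pass lay below the median, *Slc39a7* at 0.602-fold, *Slc39a6* at 0.623-fold and *Slc30a7* at 0.663-fold. Without the 50 most abundant genes *Slc39a8* was the 1 member that still passed (ratio 2.23). Of the other zinc genes, *Slc39a10* (11.5 and 4.60 CPM) and *Mtf1* (16.4 and 7.71 CPM) passed as higher, and *Mt3* (0.822 and 4.37 CPM) and *Slc30a10* (0 and 33 UMIs) as lower. Most castrated cells were Lum-F-like (83.2%) and most intact cells Lum-A-like (94.0%). The summed stress genes were 9802 CPM in the castrated and 3360.1 CPM in the intact sum, and their part was not tested.

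Basal cells passed for 0 of 8 members in the AP RFP+ and 0 of 4 in the VP RFP+ fraction, beside 7.67% and 7.16% of all genes. *Mt1* in AP RFP+ basal cells was 1760 CPM in castrated and 3249 CPM in intact cells (ratio 0.542), and *Mt2* was 912 and 1256 CPM. In VP RFP+ basal cells *Mt1* was 2041 and 2167 CPM. *Mt3* had 0 UMIs in castrated and 43 UMIs in intact AP RFP+ basal cells. There, *9530053A07Rik* stood at 31.6 CPM in the castrated sum and between 41.2 and 1030 CPM in the intact sums of the 3 runs, and its part was not tested. The median of all genes lay at -0.22, -0.29, 0.13, -0.30 and -0.10 on the log2 scale in the AP RFP-, DLP RFP- and AP RFP+ luminal and the AP RFP+ and VP RFP+ basal comparisons, so that the falls of *Mt1* and *Slc30a2* in RFP- cells remained at 0.18-fold and 0.12-fold of the median in the AP and 0.32-fold and 0.27-fold in the DLP.

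**Figure D4:**
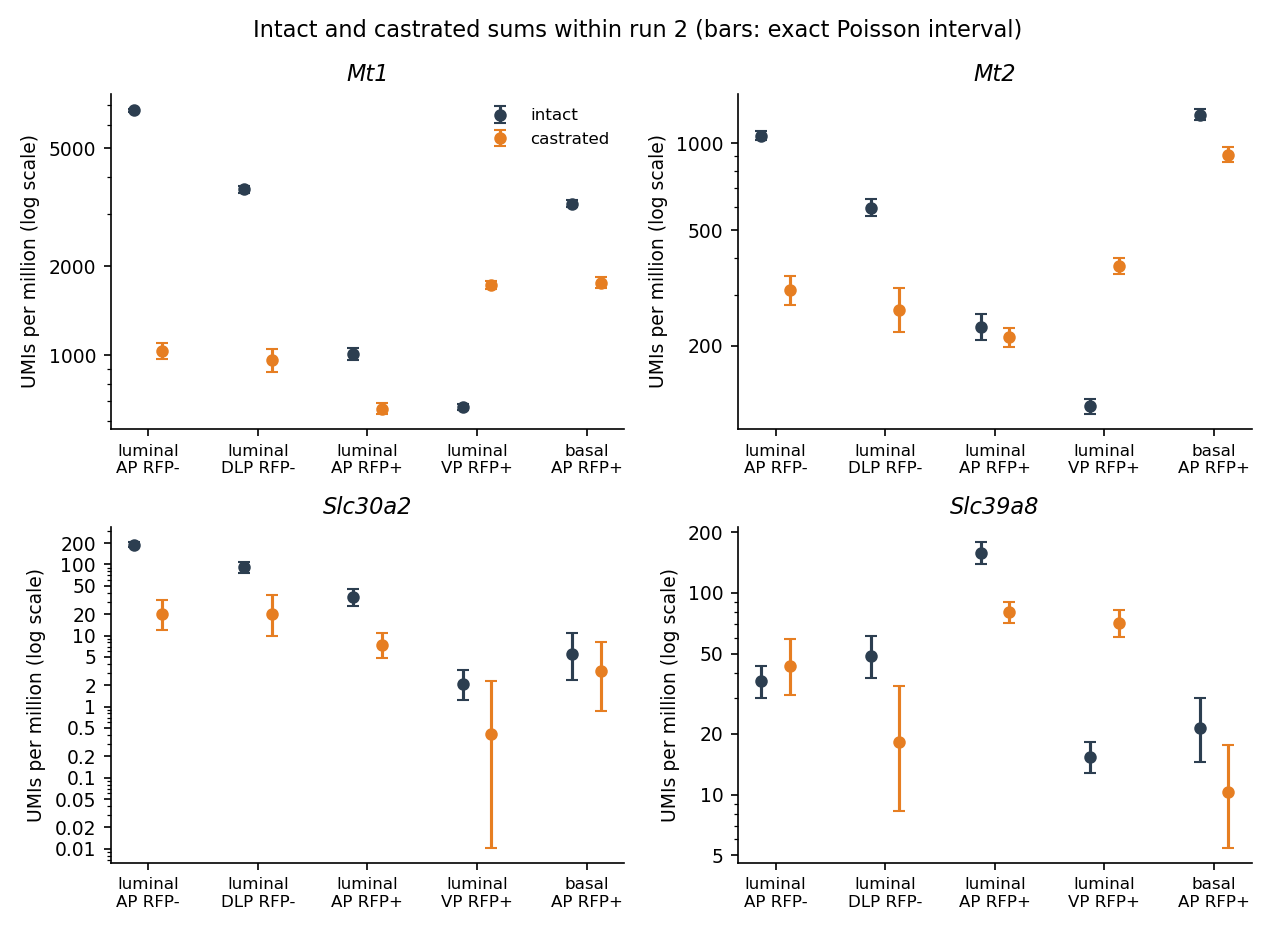
*Mt1*, *Mt2*, *Slc30a2* and *Slc39a8* in CPM on a log axis in intact (dark) and castrated (orange) sums of run 2, with exact 95% Poisson intervals that cover counting error only; 1 pool per point. *Mt1* and *Slc30a2* are lower in castrated RFP- luminal cells of AP (1032 and 20.2) and DLP (961 and 20.3), and *Mt1*, *Mt2* and *Slc39a8* are higher in VP RFP+ luminal cells, where the median of all genes was higher too.

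The last comparison followed the explants over time in culture, each day being 1 pool of 1 library with no replicate. In prostatic epithelium-like cells (463, 435, 935 and 1960 cells at day 0, 1, 3 and 6), metallothionein transcripts were higher at each later day. *Mt1* stood at 289 CPM at day 0, 490.3 at day 1, 974 at day 3 and 1019 at day 6. *Mt2* stood at 95.0, 155, 375 and 398 CPM. The cells of days 0 and 1 lay mostly in 1 cluster (461 and 384 cells), and those of days 3 and 6 in 2 others (502 and 399 cells, then 1076 and 884), so day and cluster cannot be told apart. The ratio of day 6 to day 3 was 1.05 for *Mt1*. Between successive days, *Mt2* passed the 2-fold rule from day 1 to day 3 (ratio 2.41, 2.28 to 2.55), beside 5.82% of all genes, and *Mt1* stood just under it, at a ratio of 1.99. From day 0 to day 6, a comparison added after the data were seen for which 16.6% of genes passed, *Mt1* was 3.53-fold (3.40 to 3.65) and *Mt2* 4.19-fold (3.94 to 4.46) higher, while the median of all genes lay at -0.15 on the log2 scale.

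*Slc30a1*, the exporter gene of the plasma membrane and another known MTF1 target, fell from 10.9 CPM at day 0 to 5.44 CPM at day 1 (ratio 0.499, 0.358 to 0.688), beside 5.21% of all genes, and stayed at 6.85 and 7.21 CPM at days 3 and 6. *Slc39a8* stood at 2.87, 5.44, 6.08 and 2.22 CPM, and its fall from day 3 to day 6 passed (ratio 0.365, 0.263 to 0.503), beside 3.54% of all genes. Over all assigned cells of each day, neither of these 2 changes passed. *Slc39a7* stood at 45.2, 55.3, 56.5 and 56.3 CPM. *Slc39a1* ranged from 18.1 to 24.2 CPM, *Slc39a6* from 18.9 to 26.0 CPM, *Slc30a4* from 8.09 to 14.4 CPM and *Slc30a7* from 7.89 to 11.9 CPM. *Slc30a2* had 1 to 5 UMIs in each day, or at most 0.291 CPM, against 163 to 326 CPM in the adult Lum-B-like cells. Of the other zinc genes, *Slc39a14* was higher at day 6 than at day 0 (7.58 and 2.62 CPM).

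The rise of *Mt1* was not confined to the prostatic epithelium-like cells. In a mesonephric-like cluster with cells in all 4 days *Mt1* stood at 138, 342, 547 and 793 CPM, and in another at 47.3, 104, 313 and 738 CPM. The second of these had 24.4, 24.9, 35.5 and 74.3 CPM of *Slc39a8*, and mesenchyme-like cells had 0, 36.8, 52.3 and 56.8 CPM from 20 to 71 cells. The second mesonephric-like cluster also had *Slc30a2* at 25.6 and 16.8 CPM at days 3 and 6, from 36 and 30 cells. A cluster led by *Psca*, left unnamed, had 6.79, 41.0 and 25.6 CPM of *Slc39a8* at days 1, 3 and 6. *Psca* is a marker of the adult Lum-D-like cells. The summed level of 8 hypoxia genes in the prostatic cells was 1336, 2524, 2764 and 2952 CPM over the days, and that of the stress genes was 9820, 10299, 7822 and 5464 CPM. The part of either in the metallothionein values was not tested.

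**Figure D5:**
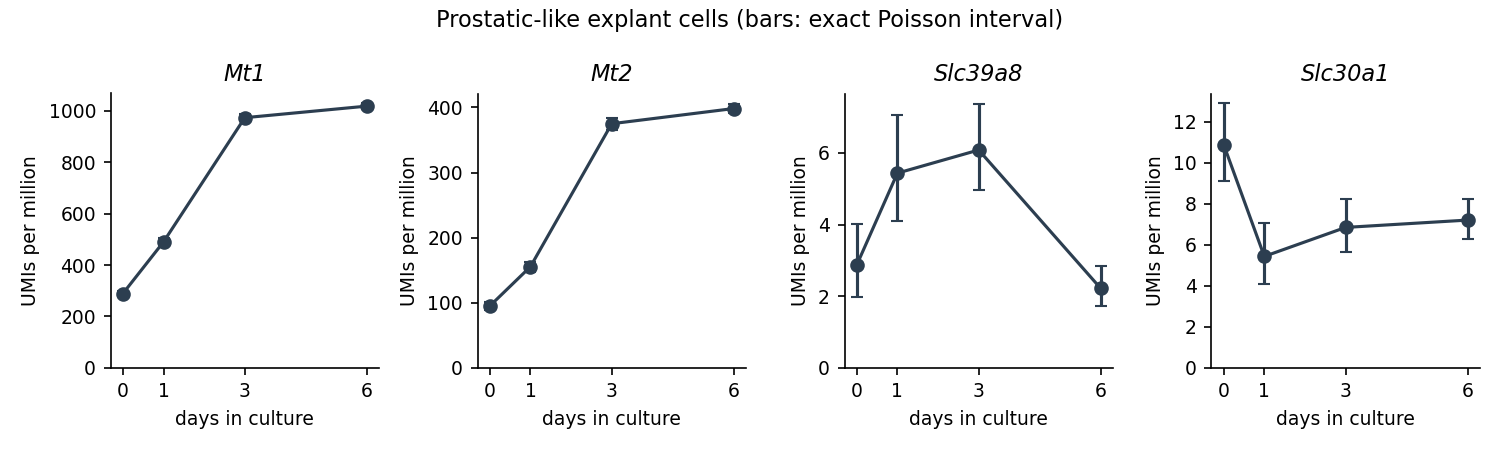
*Mt1*, *Mt2*, *Slc39a8* and *Slc30a1* in prostatic epithelium-like cells of the explants by days in culture, in CPM with exact 95% Poisson intervals; axes start at 0 and differ between genes. *Mt1* goes from 289 to 1019 and *Mt2* from 95.0 to 398, *Slc39a8* is highest at day 3 (6.08) and *Slc30a1* is highest at day 0 (10.9).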

How the data were processed

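UMI counts per gene and cell were deposited by the authors as 4 matrices, made with Cell Ranger 3.1.0 on the GRCm38 (mm10) genome. The MULTI-seq barcode counts of each cell were deposited with them. Cells were assigned to fractions here, from those counts and the barcode thresholds published with the study. Seurat 3.1.5 is also named in the submitters' processing notes. The members, the other zinc genes and the marker lists were chosen with earlier results of these data known.

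Adult cells were kept with 750 to 7500 genes and under 10% mitochondrial UMIs, and explant cells with at least 1000 genes and under 7.5%. They also had to carry 1 barcode, and cells with more than 1 were removed as multiplets. The study reports that the barcode of the intact DLP RFP+ fraction failed in runs 1 and 2. There, a doublet of such a cell and a tagged cell could carry 1 barcode and be kept. The study removed predicted doublets in these runs with DoubletFinder, which was not run here, and Scrublet scores were used in an alternative. The study's methods word the adult upper limit as UMIs, which was read here as genes, with UMIs as an alternative. In run 3 the deposited table repeats the short barcode of the AP for the VP but lists different full oligos, and its pairing of barcodes with lobes was used. The 3 adult runs were integrated and clustered together with Seurat 5.3.0, so the adult clusters were not found in each run separately. The integrated epithelial cells were clustered again at resolution 0.3, and the explant library was clustered apart. Zinc genes were left out of the genes used, and clusters were named from marker lists. Clusters that were not luminal-like or basal-like stayed out of the sums, among them an unnamed cluster with *Epcam* in most cells. UMIs were summed per run, fraction and compartment, with at least 10 cells. Sums of intact mice were tested with the quasi-likelihood test of edgeR 4.0.16 in R 4.3.3 (TMM scaling, edgeR's low-count filter, Benjamini-Hochberg adjusted p under 0.05), whose SE is the log2 fold change over the square root of F. The tests were checked on simulated data, in which 74.8% to 89.9% of genes changed 4-fold and 12.4% to 29.7% of genes changed 2-fold were recovered and 3.19% to 11.0% of calls were false. Without replicates, a gene passed with a 2-fold difference, exact 95% Poisson intervals apart (SciPy 1.17.1) and at least 20 UMIs over both sums. UMIs count molecules, and intervals and the 3-UMI floor cover counting error only.

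Replicate numbers are runs, and fractions of a run came from the same pooled mice, so the run pairs the sums: the correlation of deviations within a run was 0.0507 to 0.656. Every member is named, and of the other zinc genes those past a threshold. For *Mt1*, *Slc30a2* and *Slc39a8* the 3 most correlated genes are given. The alternatives were DESeq2 1.42.0, no filter, the run as a block, each run left out, at least 20 cells, no 50 most abundant genes, other clustering, cells under 7500 UMIs and removal of the highest 6% of Scrublet scores (Scanpy 1.11.5).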

Additional observations from a re-analysis of the deposited data

Results flagged for a closer look

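One difference between 2 cell compartments passed a test of the difference itself. The log2 fold change of *Slc30a4* between RFP+ and RFP- cells of the AP was larger in luminal than in basal cells by 2.33 ± 0.55 (edgeR interaction, adjusted p = 0.0252), from 2.51 in luminal and 0.14 in basal cells. The value rests on 4, 6 and 0 UMIs in the RFP- luminal sums of the 3 runs, and the call was lost without any 1 of the runs (adjusted p 0.0545, 0.285 and 0.200 without run 1, 2 and 3).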

How the results depend on the processing

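Over the alternatives, 622 of the member values in replicated tests kept direction and side of the threshold, 36 passed only under the alternative, 12 no longer passed and 33 changed sign. Outside the comparisons with VP RFP- luminal cells, every sum already held at least 20 cells. The alternative of at least 20 cells could not differ there, and its values are counted as kept. The run as a replicate block raised the called genes from 26 to 139 in VP luminal cells, from 0 to 32 in AP basal cells, from 64 to 559 between AP and DLP and from 605 to 1511 in the interaction, and the member calls it changed are given beside the results. DESeq2 called 68, 1 and 132 genes in the VP, AP basal and AP against DLP tests, and no low-count filter gave 201, 5 and 356, and 1810 between RFP- AP and VP. Cells under 7500 UMIs left 287 genes in AP luminal cells, 1 between AP and DLP and 100 in the interaction, and could not be fitted for the VP tests. Removing Scrublet scores gave 50 in VP luminal cells. Without 1 run, edgeR called 753 to 1810 genes in AP luminal cells, 0 to 66 in VP luminal cells, 340 to 1040 between RFP- AP and VP, 2 to 60 between AP and DLP, 1304 to 2700 between RFP+ AP and VP and 0 to 301 in the interaction. The cause of these shifts was not tested.

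For castration, cells under 7500 UMIs left 168 genes past the 2-fold rule in AP RFP+ luminal, 300 in AP RFP+ basal and 77 in VP RFP+ basal cells. With the clusters that express *Epcam* kept, 451 passed in VP RFP+ basal cells and *Slc39a8* stood at 178 CPM in Lum-D-like cells. Without the 50 most abundant genes 1234 passed in VP RFP+ luminal cells, and at resolution 0.5 1143 passed from explant day 1 to 3. *Slc39a8* in DLP RFP- cells rests on 9 UMIs and did not pass under 5 alternatives.

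Sign changes concerned log2 fold changes that were not called without the block. Without 1 run, values ran from -0.024 to 0.62 for *Slc39a1* in AP luminal cells and from -0.025 to 0.30 for *Slc30a7* in VP luminal cells. In AP basal cells they ran from -0.095 to 0.040 (*Mt1*), -0.25 to 0.042 (*Slc39a7*), -1.92 to 0.57 (*Slc30a2*), -0.10 to 0.32 (*Slc30a4*) and -0.16 to 0.26 (*Slc30a7*). Between RFP- AP and VP they ran from -0.13 to 0.47 (*Slc39a1*) and -0.11 to 0.046 (*Slc39a7*), between AP and DLP from -0.42 to 0.10 (*Slc39a1*), -0.014 to 0.16 (*Slc39a7*) and -0.43 to 0.17 (*Slc30a7*), between RFP+ AP and VP from -0.39 to 0.44 (*Mt1*), -0.20 to 0.33 (*Mt2*) and -0.36 to 0.15 (*Slc39a1*), and in the interaction from -0.34 to 0.54 (*Slc39a1*). Without high Scrublet scores, *Slc30a1* was 0.036 in VP luminal and *Mt1* 0.0033 in AP basal cells, and *Slc39a1* was -0.16 and *Slc39a7* 0.028 between RFP- AP and VP. There, 20 cells per sum gave -0.082 and 0.029, and no filter 0.038 for *Slc39a7*. Cells under 7500 UMIs gave 0.51 for *Slc39a7* in AP basal cells, and -0.44 (*Mt1*), -0.33 (*Mt2*) and -0.36 (*Slc39a7*) between AP and DLP. With the *Epcam* clusters, *Slc30a4* was -0.15 in AP basal cells, and *Slc39a1* 0.00045 and *Slc30a1* 0.063 between RFP+ AP and VP, where the replicate block gave 0.0071 for *Slc30a1*.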

Other observations

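In castrated mice of run 2, Lum-F-like cells had 2057 CPM of *Mt1* and 74.7 CPM of *Slc39a8*, Lum-E-like cells had 755 and 95.0 CPM and Lum-D-like cells 241 and 165 CPM, each from 1 library. Castrated DLP RFP+ luminal cells, whose intact counterpart was in run 3 only, had 767 CPM of *Mt1* and 93.8 CPM of *Slc39a8*. The intact DLP RFP+ values of run 3 were not compared with them, since run and treatment cannot be told apart.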
